A study of Mus musculus with 12 samples.

Results

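The chromatin of 4 melanocyte lineage transcription factor genes, Mitf, Sox10, Pax3 and Tfap2a, was described in mouse melanoma cells with mutant or intact KMT2D. The regions considered were all ChIP-seq peaks that reached within 50 kb of the gene spans on the mouse build mm9, chosen by position alone. They numbered 133 of the 173601 peaks in 10 deposited lists, 51 from mutant and 82 from WT cells. Sox10 held 57 of them, Tfap2a 30, Mitf 25 and Pax3 21. The spans were chromosome 6 from 97757000 to 97971000 for Mitf, chromosome 15 from 78985000 to 78995000 for Sox10, chromosome 1 from 78098000 to 78194000 for Pax3, and chromosome 13 from 40811000 to 40834000 for Tfap2a.

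MITF is the basic helix-loop-helix factor that drives the pigment cell programme and melanocyte survival. SOX10 and PAX3 act in the neural crest, from which melanocytes derive, and both bind the melanocyte promoter of Mitf. TFAP2A (AP-2 alpha) works with MITF at melanocyte enhancers and also acts in other ectodermal tissues. KMT2D, a methyltransferase, is known for depositing H3K4me1 on enhancers. H3K27ac marks active enhancers and promoters, H3K4me3 marks promoters, H3K79me2 the first part of transcribed genes, and H3K27me3 regions silenced by Polycomb.

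The mutant cells came from ear tumours of KMT2DL/L mice of the iBIP model and the WT cells from those of KMT2D+/+ mice. Both genotypes carried Tyr-CreERT2, a tamoxifen-activated Cre under the tyrosinase promoter, and floxed alleles named PTENL/L and INK/ARFL/L. Both also carried TetO-BRAFV600E, an oncogenic BRAF under a doxycycline-responsive promoter, with its activator Rosa26-rtta, on a mixed FVB and B6 background. Tumours were induced by doxycycline and by 4-OHT applied to the ears, and the isolated cells were kept in culture. The peak lists do not show whether KMT2D was deleted in every mutant cell. Each genotype had 1 library per mark, for 5 marks, which leaves every difference without a replicate and without a p-value. The lists carry no read counts and their depth is unknown. A missing peak says that no peak passed the authors' threshold, which is not the same as an absent mark. The lists come from bulk chromatin, in which fewer cells with a mark and less of the mark per cell cannot be told apart.

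Marks of an active promoter were found at all 4 genes in WT cells. All had an H3K4me3 peak over the 5′ end of the span in both genotypes. At Tfap2a this was a weak peak, and the main H3K4me3 peak lay further inside the gene. Mitf, Sox10 and Tfap2a also had H3K27ac at or just inside the 5′ end in both, and Pax3 only in WT cells. H3K27me3 lay over the 5′ ends of Pax3 and Tfap2a in both genotypes and over that of Sox10 in the mutant. At Sox10 the WT H3K27me3 peak began 0.113 kb inside the gene.

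Mitf has several starts, and the RefSeq promoter table (build GRCm38.p6) lists 3 of them, at 0.056, 122.8 and 184.8 kb from the 5′ end of the gene. The table matched Mitf and Tfap2a of the 4 genes. The start farthest into the gene gives the melanocyte form, MITF-M. The first and the last of the 3 promoters are shown because H3K4me3 marked only the 5′ end of Mitf. In the first, capitals mark CG dinucleotides. In the last, capitals mark TGACGTCA, the cAMP response element, and CTTTGAT, the core bound by LEF1 and TCF factors.
Mitf first start, chr6:97806808-97807107, plus strand: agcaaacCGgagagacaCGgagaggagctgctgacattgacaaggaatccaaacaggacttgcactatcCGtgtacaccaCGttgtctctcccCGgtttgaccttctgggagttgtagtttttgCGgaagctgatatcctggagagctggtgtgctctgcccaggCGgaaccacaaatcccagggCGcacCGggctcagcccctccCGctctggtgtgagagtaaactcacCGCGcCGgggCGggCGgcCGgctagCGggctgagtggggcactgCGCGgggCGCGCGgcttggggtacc
Mitf last start, chr6:97991533-97991832, plus strand: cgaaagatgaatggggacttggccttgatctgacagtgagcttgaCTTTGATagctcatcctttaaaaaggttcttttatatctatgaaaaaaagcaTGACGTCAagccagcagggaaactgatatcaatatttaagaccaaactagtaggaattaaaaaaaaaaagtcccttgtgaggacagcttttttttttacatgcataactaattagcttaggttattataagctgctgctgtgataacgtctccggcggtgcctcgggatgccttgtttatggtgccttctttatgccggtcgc
The first promoter held 22 CG dinucleotides and the last held 8, with a median of 7 over all 32851 promoters of this length in the table. TGACGTCA was found, on either strand, in 1.79% of these promoters and CTTTGAT in 3.73%. The E-box CACGTG (7.15% of promoters) and AACAAT, a SOX core (10.7%), were searched on both strands as well. None of the 3 Mitf promoters held either. The motifs do not overlap in the sequences shown.

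**Figure D1:**
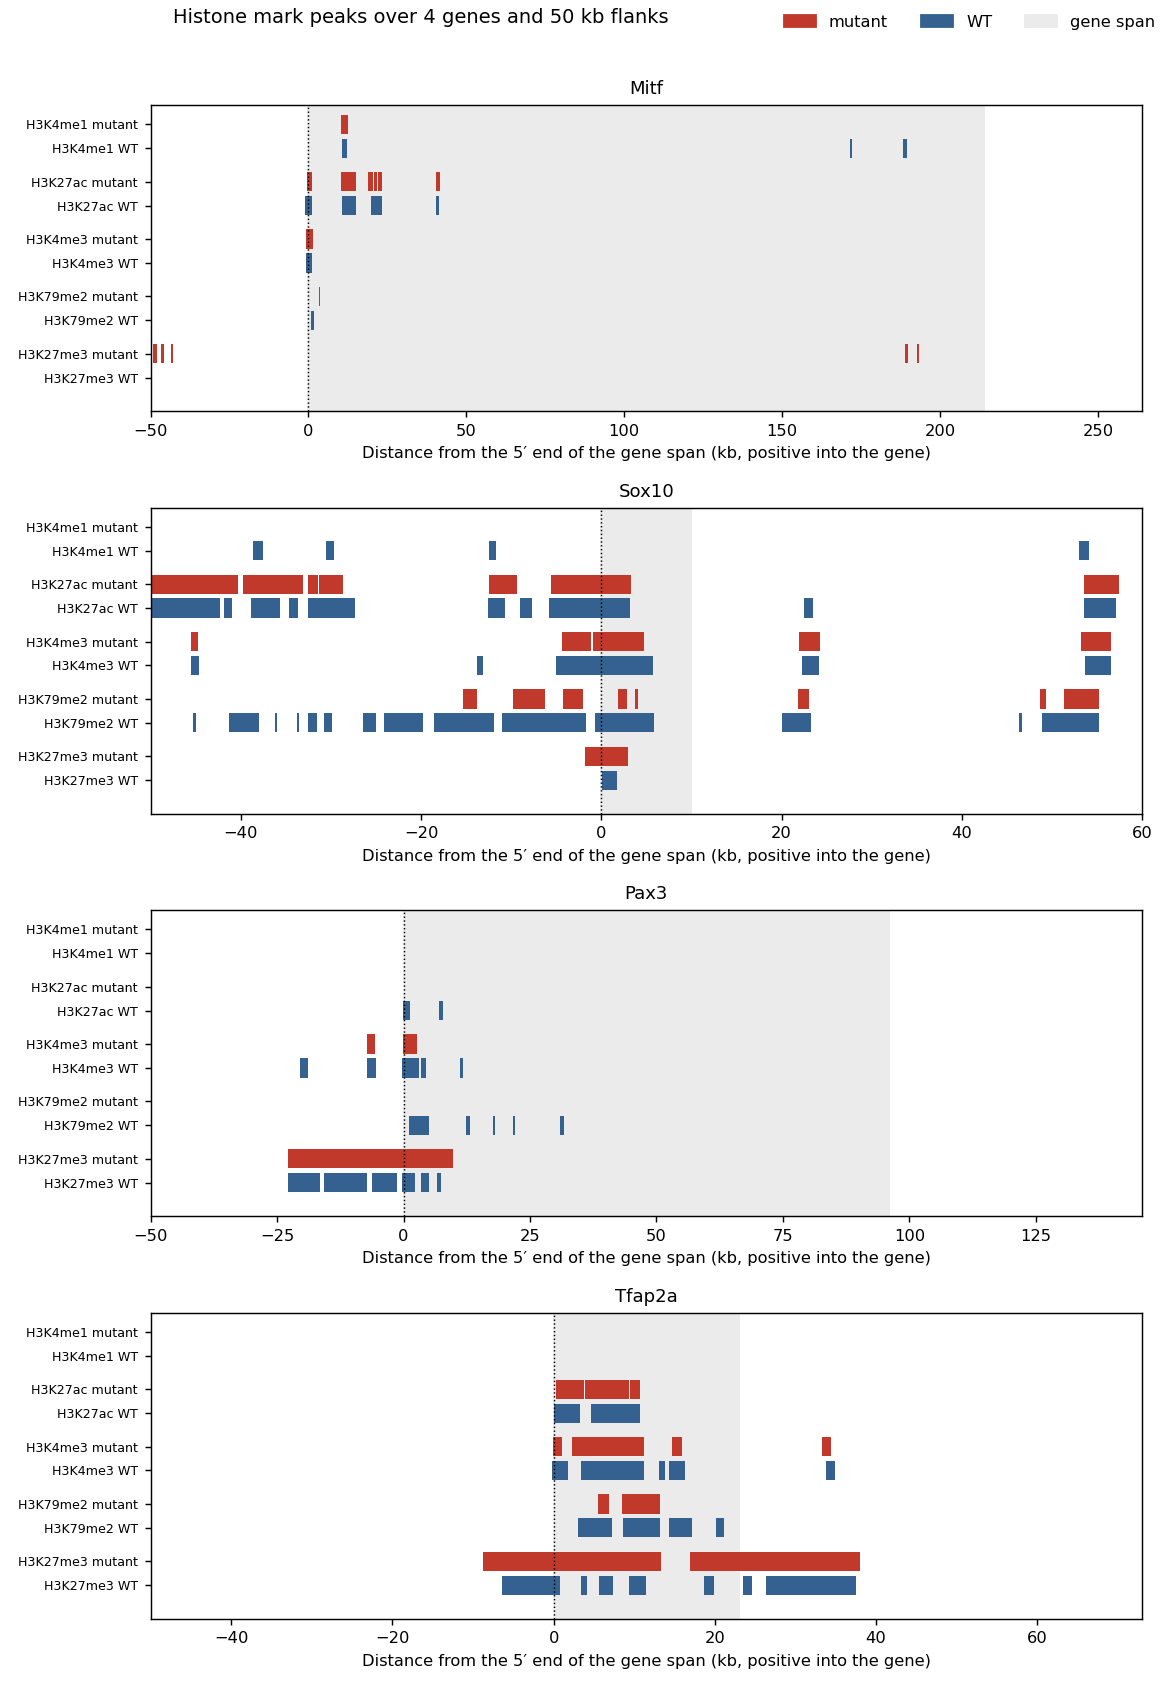
Peaks of 5 histone marks over Mitf, Sox10, Pax3 and Tfap2a with 50 kb flanks; the x axis is the distance from the 5′ end of the gene span in kb, and each row is 1 mark in mutant (red) or WT (blue) cells, with very short peaks drawn at a minimum visible width. Inside Mitf, peaks sit in the first 41.7 kb and after 171.5 kb. H3K27ac rows are largely alike at Mitf, Sox10 and Tfap2a, and the H3K79me2 rows are sparser in the mutant.

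The marks separated clearly when summed over the 4 windows. H3K27ac covered 56.8 kb in the mutant and 57.2 kb in WT, a ratio of 0.993, beside 1.02 for the whole lists. H3K4me3 covered 34.4 kb in the mutant and 41.2 kb in WT, a ratio of 0.835 beside 1.05 for the whole lists. H3K79me2 covered 20.8 kb in the mutant and 64.2 kb in WT, a ratio of 0.324, where the whole lists gave 0.824. H3K27me3 went the other way, with 84.1 kb in the mutant and 52.0 kb in WT, a ratio of 1.62 beside 1.36. H3K4me1 was sparse, at 2.02 kb in the mutant and 7.33 kb in WT, and its ratio of 0.275 was close to the 0.30 of the whole lists. That ratio rested on few peaks and turned to 1.30 with a strict threshold and with lists of equal number, where the whole lists gave 0.18 and 0.569.

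A covered length that differed by 1.5 fold or more was called, and the same rule was applied to all 100 kb windows of the genome with a peak of the mark in either genotype. These windows are shorter than the windows of the 4 genes, which ran from 110 to 314 kb. H3K79me2 was lower in the mutant by this rule at 4 of 4 genes, against 34.9% of windows. Among windows with at least 5 kb of H3K79me2 summed over both genotypes, 25.2% were lower. Mitf, with 249 bp in the mutant and 1080 bp in WT, was under that sum. H3K27me3 was higher in the mutant at 3 of 4 genes (Mitf, Sox10 and Tfap2a), against 39.0% of all windows. Mitf was under the 5 kb sum for this mark too, which leaves 2 of 3 genes to set beside 36.3% of the windows with at least 5 kb. H3K4me1 was lower at both genes that had it, which 83.5% of windows shared. H3K27ac and H3K4me3 were each lower at 1 of 4 genes, Pax3, against 21.5% and 8.46% of windows.

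**Figure D2:**
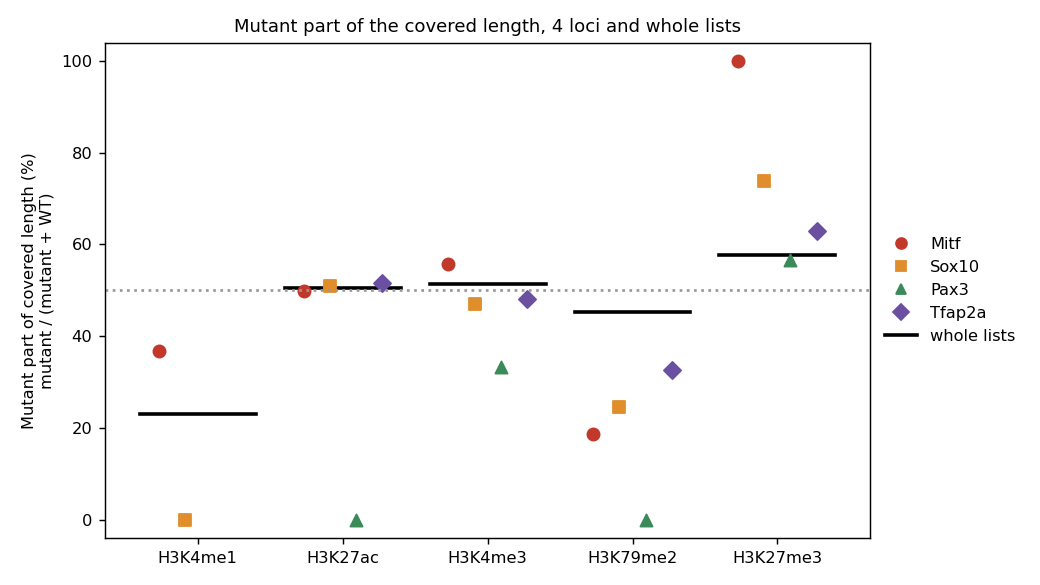
Mutant part of the covered length, in percent of mutant plus WT, for each mark at the 4 genes with their 50 kb flanks (symbols) and over the whole lists (black lines); 50% means equal length in both genotypes. For H3K79me2 all 4 genes lie below the line of the whole lists (45.2%), with Tfap2a at 32.5%, Sox10 at 24.6%, Mitf at 18.7% and Pax3 at 0%; Pax3 and Tfap2a had no H3K4me1 and are not drawn there.

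**Figure D3:**
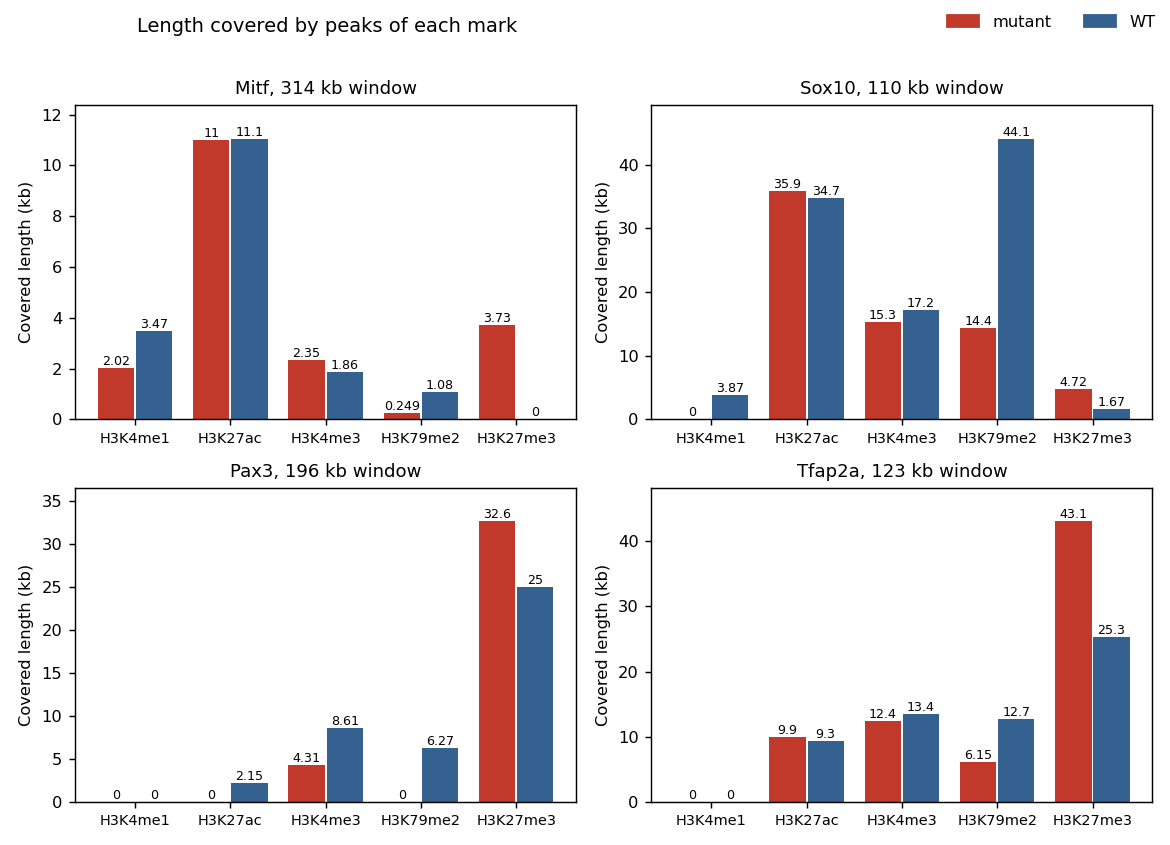
Length covered by peaks of each mark in kb (y axis, bars starting at 0) in the window of each gene, mutant (red) left of WT (blue), from 1 library each. At Sox10 H3K27ac bars are nearly equal, at 35.9 and 34.7 kb, while those of H3K79me2 are 14.4 kb in the mutant and 44.1 kb in WT.

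Counts of peaks gave the same order of marks. Of the WT H3K79me2 peaks in the 4 windows, 17 of 24 had no mutant peak (70.8%, 95% exact interval 48.9 to 87.4), against 36.8% of the WT list. The mutant H3K79me2 peaks lay mostly within the WT ones: 1 of 11, at Mitf, had no WT peak, against 15.3% of the mutant list. Of the WT H3K4me3 peaks 5 of 16 had no mutant peak (31.3%, 11.0 to 58.7), against 11.3% of the list. All 13 mutant H3K4me3 peaks had a WT peak, while 6.18% of the mutant list had none. All 17 mutant H3K27ac peaks had a WT peak as well, where 18.4% of the mutant list had none. Of the WT H3K27ac peaks 4 of 21 lacked a mutant peak (19.0%), against 24.1% of the list. Of these 4, 2 were at Sox10 and 2 at Pax3. For H3K27me3, none of the 14 WT peaks lacked a mutant peak, where 35.0% of the WT list did. Of the mutant H3K27me3 peaks 5 of 9, all at Mitf, had no WT peak, against 49.9% of the mutant list. Of the WT H3K4me1 peaks 6 of 7 had no mutant peak, close to the 77.0% of the list. These intervals reflect counting error alone, and peaks beside each other share their chromatin.

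Mitf had H3K4me3 only at its first start, and its H3K27ac lay at the first start and further into the first part of the gene. The H3K4me3 peak over the 5′ end was 2348 bp wide in the mutant (97756112 to 97758459, score 1205) and 1858 bp in WT (97756144 to 97758001, score 1284). The score is the authors' measure of a peak's strength, used here to rank peaks within a list. So is the −log10 q given for H3K79me2 and H3K27me3. H3K27ac covered 11.0 kb in the mutant and 11.1 kb in WT, all within 41.7 kb of the 5′ end. The longest stretch lay 10.4 to 15.1 kb inside the gene, 1 peak of 4700 bp in the mutant (97767380 to 97772079, score 1166). In WT it was called as 2 peaks, of 2906 bp (97769267 to 97772172, score 782.2) and 1758 bp. All H3K27ac peaks of Mitf overlapped a peak of the other genotype. Most of the length covered by each of the 4 marks other than H3K27me3 was in the gene, with H3K4me1 and H3K79me2 wholly inside it. The upstream flank held 385 bp of H3K27ac in the mutant and 956 bp in WT, and 888 bp of H3K4me3 in the mutant and 856 bp in WT. The downstream flank had no peak of any mark in either genotype.

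That acetylated stretch carried the single mutant H3K4me1 peak of all 4 windows, 2016 bp wide (97767350 to 97769365, score 261.2). It contained the whole WT H3K4me1 peak there, of 1549 bp (97767750 to 97769298, score 216.2). WT cells had H3K4me1 at 2 more sites, from 171.5 to 172.2 kb and from 188.3 to 189.5 kb inside the gene. These peaks had scores of 128.1 and 154.8, below the WT list's median of 159.2. Neither had H3K27ac in either genotype.

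No list had a peak of any mark between 41.7 and 171.5 kb from the 5′ end of Mitf, in either genotype. H3K4me3 and H3K27ac were absent from the lists over the rest of the gene too. On GRCm38 the melanocyte start lies 184.8 kb from the 5′ end of a gene of 214.4 kb, and on mm9 the span used here was 214 kb. Distances are given side by side and coordinates were not converted between builds. The peaks nearest to that distance on mm9 were 2 short mutant H3K27me3 peaks, from 189.0 to 189.8 kb and from 192.8 to 193.3 kb, and the WT H3K4me1 peak from 188.3 kb. The first of these H3K27me3 peaks overlapped the WT H3K4me1 site over 475 bp. The mutant also had 3 H3K27me3 peaks 43.2 to 49.4 kb before the gene, and WT cells had no H3K27me3 in the window. These 5 peaks had a −log10 q of 3.71 to 4.18, near or below the median of 4.18 in the mutant list.

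H3K79me2 at Mitf was limited to 1 peak per genotype. The mutant peak was 249 bp wide (97760210 to 97760458) and the WT peak 1080 bp (97757783 to 97758862), and they did not overlap. The gene of 214 kb was thus nearly bare of this mark in both genotypes.

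With its flanks, which hold other genes, Sox10 had more H3K27ac, H3K4me3 and H3K79me2 in bp than the windows of the other 3 genes. Over the gene alone, any mark covered 4.72 kb in the mutant and 5.82 kb in WT, less than at Tfap2a, with 20.7 kb in the mutant and 18.8 kb in WT. H3K27ac covered 35.9 kb of the Sox10 window in the mutant and 34.7 kb in WT, and 85.0% of the mutant bases were also acetylated in WT. Of 10 WT H3K27ac peaks there, 2 had no mutant peak. They were 1235 bp in the upstream flank (79002739 to 79003973, score 111.8) and 1012 bp in the downstream flank (78971545 to 78972556, score 205.7). The peak over the 5′ end was 8927 bp wide in the mutant (78991649 to 79000575, score 1011) and 9005 bp in WT (78991801 to 79000805, score 1580). A long H3K27ac peak also lay at the upstream edge of the window, 10082 bp in the mutant (79035285 to 79045366, score 1630), its longest there, and 8337 bp in WT (79037339 to 79045675, score 2887). In the upstream flank as a whole, H3K27ac covered 28778 bp in the mutant and 26991 bp in WT. RefSeq on GRCm38 places the long noncoding RNA gene Gm10863 in that flank, from 1.58 to 51.9 kb before Sox10. Marks there cannot be given to Sox10 alone.

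The mutant list had no H3K4me1 peak at Sox10, and the WT list had 4. Of these, 3 lay upstream, 11.7 to 38.7 kb before the gene, wholly within WT H3K27ac. In the mutant, H3K27ac covered 715 of 762, 841 of 841 and 1121 of 1121 bp of these sites. All 4 peaks scored below the WT list's median of 159.2. Their scores ran from 96.8 to 147.8, where the lowest score in the WT list was 90. The fourth lay 53.0 to 54.1 kb from the 5′ end, beyond the gene.

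H3K4me3 over the Sox10 5′ end and the bases before it was called as 3 peaks in the mutant, of 5625 bp (78990282 to 78995906), 2119 bp and 1034 bp, separated by gaps of 269 and 2 bp. In WT it was a single peak of 10810 bp (78989211 to 79000020), the ninth widest of its list. The mutant peaks covered 8778 bp of it. Over the gene alone H3K4me3 covered 4.72 kb in the mutant and 5.79 kb in WT, and in the upstream flank 4.91 kb in the mutant and 6.58 kb in WT. The widest mutant peak had a score of 1592 and the WT peak 3100, a value that other strong peaks share.

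H3K79me2 at Sox10 was 1.34 kb over the gene in the mutant and 5.82 kb in WT. In the upstream flank it was 7.47 kb in the mutant and 28.4 kb in WT. Mutant peaks reached 15.4 kb before the gene and WT peaks 45.3 kb. The longest mutant peak of the window, in the downstream flank, was 3810 bp (78939824 to 78943633) and the longest WT peak, just before the gene, 9286 bp (78996697 to 79005982). Over the gene, the −log10 q was 3.98 and 5.16 for the mutant peaks and 9.51 for the WT peak. Of 14 WT H3K79me2 peaks, 9 had no mutant peak. The longest of these were 4287 bp (79014774 to 79019060), 3317 bp (79033014 to 79036330) and 1466 bp (79020002 to 79021467).

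The downstream flank of Sox10 holds other genes and gives a local comparison. On GRCm38, Polr2f, a subunit shared by the RNA polymerases, starts 13.6 kb from the 3′ edge of Sox10, and Micall1, an endocytic recycling factor, 46.4 kb from it. The gene 1700088E04Rik lies 13.7 to 20.3 kb from the same edge. On mm9, mutant H3K4me3 peaks stood 22.0 to 24.3 kb and 53.2 to 56.5 kb from the 5′ end of Sox10, and WT peaks overlapped both. These peak distances include the 10 kb span of Sox10, which the distances to the neighbours do not. H3K79me2 covered 5.60 kb of this flank in the mutant and 9.91 kb in WT, a ratio of 0.566, against 0.230 over Sox10. That flank ratio pools sites that differ. At the H3K4me3 site nearer to Sox10, the H3K79me2 peak was 1215 bp in the mutant and 3231 bp in WT. The WT H3K27ac peak of 1012 bp at this nearer site had no mutant peak. Farther out, the H3K79me2 peaks were 3810 and 578 bp in the mutant and 6338 and 337 bp in WT. H3K4me3 of the flank covered 5.63 kb in the mutant and 4.87 kb in WT. The difference between Sox10 and its neighbours was not tested, since each has 1 library.

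H3K27me3 lay over the 5′ end of Sox10 in the mutant and just inside the gene in WT. The mutant peak was 4722 bp wide (78992034 to 78996755, −log10 q 5.28) and the WT peak 1669 bp (78993219 to 78994887, −log10 q 3.87). The mutant peak contained the WT one. H3K27ac and H3K4me3 were called over the same bases as H3K27me3, all 3 together over 4.45 kb in the mutant and 1.67 kb in WT. H3K27ac and H3K27me3 are alternative states of the same lysine and cannot share a histone tail.

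Pax3 differed most in its active marks. The mutant lists had no H3K27ac and no H3K79me2 in its window. WT cells had 2 H3K27ac peaks, 1387 bp over the 5′ end (78192666 to 78194052, score 198.2) and 765 bp inside the gene (78186156 to 78186920, score 103.01). Both scores were below the WT list's median of 299.2. WT H3K79me2 was in 5 peaks over 6.27 kb, the longest of 3945 bp (78189015 to 78192959), with others 12.3 to 31.8 kb inside the gene. Of the active marks near the 5′ end, the mutant lists thus held H3K4me3 alone.

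H3K4me3 at Pax3 covered 4.31 kb in the mutant and 8.61 kb in WT. Over the 5′ end it was 2764 bp in the mutant (78191243 to 78194006, score 701.9) and 3531 bp in WT (78190859 to 78194389, score 1633). A second site was also in both lists, 5.63 to 7.18 kb before the gene in the mutant and 5.40 to 7.17 kb in WT. WT peaks of 1752 bp (78212802 to 78214553), 941 bp (78189639 to 78190579) and 613 bp (78182236 to 78182848) had no mutant counterpart. The first of them lay 18.8 to 20.6 kb before the gene. On GRCm38, the noncoding RNA gene Gm33152 lies 4.09 to 5.92 kb and the gene Gm2102 17.8 to 21.1 kb before Pax3, so these upstream sites cannot be given to Pax3 alone.

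H3K27me3 at Pax3 was a single mutant peak of 32630 bp (78184229 to 78216858, −log10 q 7.53), the 31st widest of 14712 in its list. WT cells had 6 peaks over nearly the same stretch, the longest of 8444 bp (78201250 to 78209693), separated by gaps of 880 to 1561 bp. WT H3K27me3 covered 24981 bp, and 76.5% of the mutant bases were marked in WT. The mutant peak covered both sites of WT H3K27ac. In WT, H3K27me3 lay over 1387 of 1387 bp of the site at the 5′ end and 401 of 765 bp of the site inside the gene. Of the 21 WT H3K27ac peaks in the 4 windows, these 2 had no mutant H3K27ac and did have mutant H3K27me3, a combination found at 0.986% of the WT list. In that list, 3.05% of H3K27ac peaks overlapped WT H3K27me3. Both Pax3 sites lay under the same mutant peak. Over the gene, H3K27me3 covered 9772 bp in the mutant and 4919 bp in WT, and in the upstream flank 22858 bp in the mutant and 20062 bp in WT. Merging peaks across gaps of up to 1000 bp brought the flank to 22858 bp in the mutant and 22868 bp in WT. The downstream flank of Pax3 had no peak in either genotype. H3K27me3 without any other mark covered 28.3 kb of the window in the mutant and 17.6 kb in WT.

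**Figure D4:**
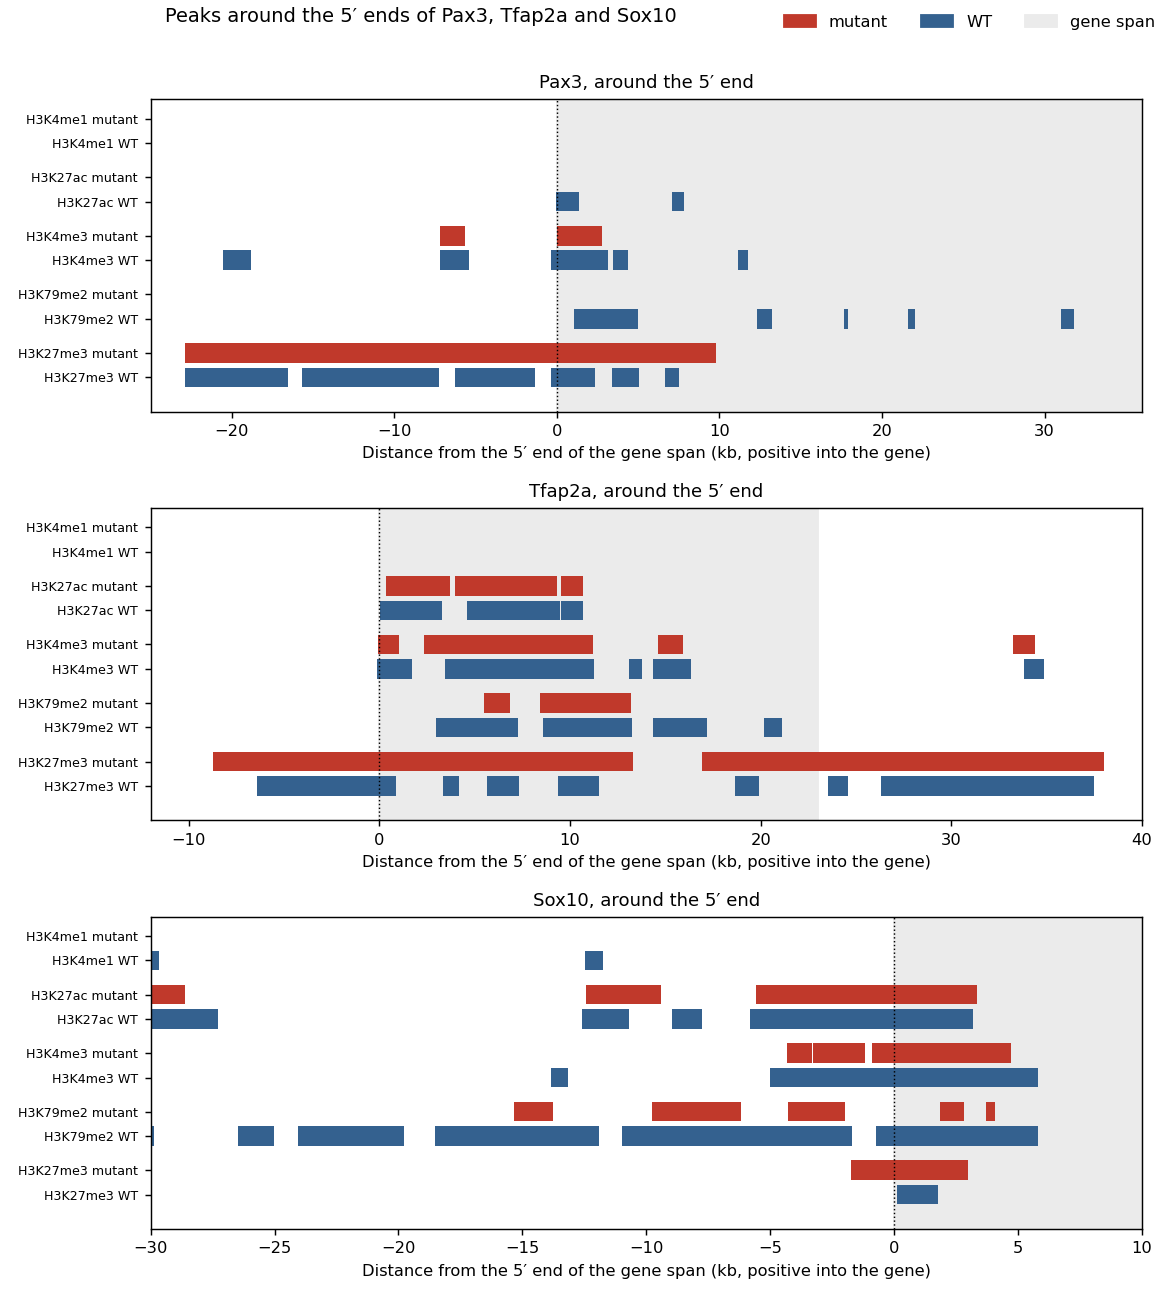
Peaks around the 5′ ends of Pax3, Tfap2a and Sox10, drawn to the same rules as the wider map; the x axis is the distance from the 5′ end of the span in kb, with mutant rows (red) above WT rows (blue). Mutant H3K27me3 is 1 unbroken peak of 32.6 kb at Pax3, and 2 long peaks at Tfap2a, where WT cells have 6 and 7 peaks; H3K27ac and H3K79me2 have no mutant peak at Pax3.

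Tfap2a carried active marks and H3K27me3 together. H3K27ac lay within the first 10.7 kb of the gene in both genotypes, over 9.90 kb in the mutant and 9.30 kb in WT. The longest peak was 5346 bp in the mutant (40824703 to 40830048, score 681.1) and 4862 bp in WT (40824546 to 40829407, score 1464). H3K4me3 covered 12446 bp in the mutant and 13450 bp in WT. Its main peak was 8900 bp in the mutant (40822781 to 40831680) and 7818 bp in WT (40822745 to 40830562), both with a score of 3100. Other strong peaks share that value, so equal scores need not mean equal strength. The main peaks were the 31st and the 45th widest H3K4me3 peaks of the mutant and WT lists. They began 2.32 kb inside the span in the mutant and 3.44 kb in WT. On GRCm38, the RefSeq promoter table lists Tfap2a starts 3.32 and 4.44 kb from the 5′ end. The gene is 24.4 kb long on that build and the mm9 span 23 kb, so distances on the 2 builds need not match. The separate H3K4me3 peak over the 5′ end of the span had a score of 109.2 in the mutant and 278.3 in WT. The list medians were 731.0 in the mutant and 926.9 in WT. No H3K4me1 peak was in the window of Tfap2a or of Pax3 in either genotype.

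H3K27me3 at Tfap2a consisted of 2 long mutant peaks, of 22005 bp over the 5′ end (40820725 to 40842729, −log10 q 8.51) and 21063 bp over the 3′ end and beyond (40796009 to 40817071, −log10 q 6.98). WT cells had 7 peaks over the same stretch, from 824 to 11148 bp (the longest from 40796526 to 40807673), and the mutant peaks contained all of them. Over the gene itself H3K27me3 covered 19.3 kb in the mutant and 6.74 kb in WT, which is 84.1% and 29.3% of the span. The upstream flank had 8729 bp in the mutant and 6405 bp in WT, and the downstream flank 14991 bp in the mutant and 12175 bp in WT. Both mutant peaks and that of Pax3 overlapped 3 or more WT peaks, as 3 of the 9 mutant H3K27me3 peaks in the windows did, against 2.05% of the mutant list. These 3 peaks were at least 21063 bp wide, where the median width in the mutant list was 1120 bp. The share among peaks of like width was not computed.

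All of the H3K27ac at Tfap2a lay under H3K27me3 in the mutant, 9.90 of 9.90 kb, and 3.78 of 9.30 kb did in WT. Over the 4 windows, 4 of 17 mutant and 6 of 21 WT H3K27ac peaks overlapped H3K27me3 of their own genotype. In the whole lists 2.98% of mutant and 3.05% of WT H3K27ac peaks did. H3K79me2 covered 6.15 kb in the mutant and 12.7 kb in WT. The longest H3K79me2 peaks of both lists overlapped, 4786 bp in the mutant (40820784 to 40825569, −log10 q 4.75) and 4656 bp in WT (40820751 to 40825406, −log10 q 9.32). The other mutant peak was 1361 bp, within a WT peak of 4301 bp, and WT peaks of 2870 bp (40816798 to 40819667) and 919 bp (40812893 to 40813811) had no mutant counterpart. The noncoding RNA gene Gm26688 overlaps Tfap2a on GRCm38, so the marks inside the span cannot be given to Tfap2a alone.

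Bases shared between genotypes were counted at each gene. The same shares were not counted over the whole lists, so whether they are unusual cannot be said. At Sox10 and Tfap2a, 32.3% and 46.9% of the WT H3K79me2 bases were also marked in the mutant, and at Mitf and Pax3 none were. At Mitf this rested on 249 bp in the mutant and 1080 bp in WT. For H3K27ac the shares were 88.0% at Sox10, 94.6% at Tfap2a, 87.1% at Mitf and 0% at Pax3. For H3K27me3 the mutant covered 100% of the WT bases at Sox10 and Tfap2a and 99.96% at Pax3.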

How the data were processed

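ChIP-seq of 5 histone marks was analysed in 2 genotypes, with 1 library each and groups taken from the sample titles. The 2 input libraries were not used here. The authors deposited 1 peak list per library, on mm9; the submitters' processing notes list Bowtie, MACS, MACS2 and deepTools, with neither a version nor a role. Lists of H3K4me1, H3K27ac and H3K4me3 hold the authors' score per peak. Lists of H3K79me2 and H3K27me3 hold, as deposited, the −log10 of p and q, a fold enrichment (ratio) and a score. Gene spans with 50 kb flanks came from the rule for the genes, and only the part of a peak inside a window was counted. Peaks overlapping by at least 1 bp were shared. Shares carry exact Clopper-Pearson 95% intervals. Whether biological material was shared between libraries is not given in the sources used here. The strand of Sox10 and Pax3 is background knowledge. Peaks given by coordinates were taken from the longest per gene, mark and genotype and from those over the 5′ end. They also came from up to 3 of the longest without a peak of the other genotype. Not every peak of these kinds is given, and a few more were given after their values were seen. Genes, lists and tests were chosen with earlier results of these data known, and the 100 kb windows and motifs after seeing the data. No mm9 gene table was used, so other pathway genes were not counted. Overlap code was tested on simulated lists. The tools were matplotlib 3.10.9, scipy 1.17.1, numpy 2.4.6 and Python 3.11.15.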

Additional observations from a re-analysis of the deposited data

How the results depend on the processing

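No paired analysis was possible because each genotype has 1 library per mark. The covered-length ratios of H3K27ac and H3K4me3 moved by less than 1.5 fold under each alternative run. The H3K4me1 ratio reversed to 1.30 with the strictest threshold (a −log10 q from 5 up, or a score from 200 up) and with both lists limited to equal numbers of peaks by strength, where 1 WT peak was left, at Mitf. The difference over the Mitf gene then reversed to 467 bp, and 0% of WT H3K4me1 peaks lacked a mutant one. The H3K4me1 ratio was 0.477 with a flank of 25 kb, 0 without Mitf and 0.582 without Sox10 (leaving out a gene was chosen after seeing the data). With the strictest threshold the H3K79me2 ratio was 0.135 (0.80 for the whole lists), the H3K27me3 ratio 3.34 (1.61 for the whole lists), and 0% of mutant H3K79me2 peaks lacked a WT peak. When at least 50% of a peak had to be covered, 87.5% of WT H3K79me2 peaks lacked a mutant one. The cause of these changes was not tested. With the other alternatives (a score from 100 up or −log10 q from 3 up, a 100 kb flank, whole peaks, merging within 1000 bp, shared within 1000 bp), the summed ratios and shares kept to within 1.5 fold or their interval. Of 202 values per gene and part under the alternatives, 39 changed the difference between genotypes by more than 1.5 fold, or its direction where it was not called, and 2 reversed a called one. Settings that left no peak in either genotype gave no value and are not among the 202. With the strictest threshold this held for H3K27ac at Pax3, H3K4me1 at Sox10, and H3K79me2 and H3K27me3 at Mitf. Those differences were thus not seen there. It also held for H3K4me1 at Sox10 with equal numbers of peaks, and for H3K27me3 in the Mitf flanks within 25 kb.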
